A study of Mus musculus with 12 samples.

Results

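The genes described here are the autosomal genes of mouse liver measured 6 h after dexamethasone, compared between 3 female and 3 male mice. Dexamethasone is a synthetic glucocorticoid that activates the glucocorticoid receptor. All 12 mice of the series were C57BL/6, 11 weeks old and adrenalectomized, so every group, controls included, lacked adrenal corticosterone. Females were in diestrus (diestrous 1 per the labels). Each mouse received either 1 mg/kg dexamethasone intraperitoneally or phosphate-buffered saline as vehicle, and each of the 4 groups (male vehicle, female vehicle, male dexamethasone, female dexamethasone) held 3 mice with 1 array each. A gene entered the set when the array design placed it on chromosomes 1 to 19 and its probe passed the scanner's background test in each of the 3 males or each of the 3 females given dexamethasone. Of 19335 genes tested, 18364 were autosomal and 17998 met this rule, 14447 of them with a symbol in a RefSeq gene table. Of the 17998, 16641 were above background in all 3 mice of both sexes given dexamethasone, 1268 only in the females and 89 only in the males. The other 366 autosomal genes tested were not above background on all arrays of either dexamethasone group.

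Rodent liver is among the most sexually dimorphic organs in its gene expression. The difference is known to be set largely by the pattern of growth hormone release, pulsatile in males and more continuous in females, which reaches hepatocytes through the growth hormone receptor and the transcription factor STAT5B. Repressors such as BCL6, higher in male liver, and CUX2, higher in female liver, act on the same gene network. Glucocorticoid acts through a separate nuclear receptor that is known to bind together with STAT5 at many liver genes. The programs known to respond to these hormones include steroid and drug metabolism, bile acids, plasma proteins and immune genes.

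Values below are log2 signals relative to the 75th percentile of their own array, so 0 is that percentile itself. A difference is female minus male ± its standard error, with n = 3 arrays a sex, and p-values are from limma, adjusted by Benjamini and Hochberg over all 19335 genes with a threshold of 0.05. No label says whether the mice of a group came from separate cages or litters; p-values measure the spread between these arrays. Because each probe has its own response, levels are compared between arrays and not between genes. In whole liver, fewer cells of a type and less RNA per cell cannot be told apart. The sex labels held on all 12 arrays: Xist was well above background on 6 of 6 female and 0 of 6 male arrays, and the Y-linked genes Ddx3y, Eif2s3y, Kdm5d and Uty on 6 of 6 male and 0 of 6 female arrays. Brightness moved with sex among the dexamethasone arrays. The 75th percentile before scaling was 578 to 788 intensity units in males and 842 to 910 in females, and the share of probes over background was 65.1 to 69.0% in males against 71.4 to 71.7% in females. Slide moved with sex as well: slide 1 held 1 dexamethasone array of each sex, slide 2 held 2 of females and slide 3 held 2 of males. The part of brightness in the results was not tested; for slide, a fit with slide as a block (the slide block) was run for every gene, and the genes whose call it ended are given below.

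Under dexamethasone 1049 of the 17998 genes (5.83%) differed between the sexes, 601 higher in females (3.34%) and 448 higher in males (2.49%). The counts of every gene list below are to be set against these shares. A larger share of the genes higher in males differed by at least 2 on the log2 scale, 99 of those 448 genes. Among the 601 higher in females 57 did. The largest difference of a named gene was 12.93 toward females (Sult2a2) and -7.33 toward males (Cfd). Over all 17998 genes the median difference was -0.05. The 3 female values lay wholly above or below the 3 male values in 26.7% of all genes and in 1048 of the 1049 called. Non-overlap thus adds little to a call. At an unadjusted p under 0.05 the count was 3996. By signal level, 6.27% of the lowest 6000 genes were called, 6.83% of the next 5999 and 4.38% of the highest 5999.

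The count of 1049 depended on the fit. With slide as a block it was 218 genes (82 higher in females and 136 in males), of which 206 were among the 1049, all in the same direction. Within slide 1 the median difference was 0.94 over the 601 genes and -1.11 over the 448, against -0.09 over all 17998; these arrays are part of the comparison that chose the genes, so this is a description. With normexp background correction (a model of signal plus background on the raw spot means) 54 genes were called, 25 higher in females and 29 in males. Fitted on the 6 dexamethasone arrays alone, without the vehicle arrays' share in the estimate of spread, 443 genes were called. Leaving out 1 dexamethasone array gave between 418 genes (without female 1) and 1202 genes (without female 3), with 550 without male 1, 574 without male 2, 681 without male 3 and 555 without female 2. Of 74 called genes that were followed through every setting, 36 were called with slide as a block and 23 with normexp, and 0 changed direction. The 23 were Sult2a2, A1bg, Sult3a1, Slc22a26, Hamp2, Ly6c1, Cyp2a4, Cyp39a1, Slco1a4, Prlr and Gbp3 among genes higher in females, and Nat8, Nat8f5, Asns, Elovl3, Scara5, C6, C8a, C9, Nox4, Cyp7b1, Gstp1 and Aox3 among those higher in males. The others among the 74 were not called with normexp. Acot3, Cfd, Cyp2b10, Cyp4a12a, C8b, Slco1a4, Nr1i3, Nr0b2, Akr1d1, Serpina6, Ugt2b35, Lck, Lum, Dcn, Csf1r, Tek, Mup1 and Mup3 were not called in the fit of the 6 dexamethasone arrays alone, and C8b, Cyp4a12a, Mup1, Mup3 and Tek not after quantile normalization.

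The genes furthest apart in favour of females encode enzymes of sulfation and oxidation, a plasma glycoprotein and an anion carrier. Sult2a2, a sulfotransferase of the family that conjugates bile acids and steroids, read 5.45, 4.51 and 6.42 in the 3 dexamethasone females and -7.39, -7.83 and -7.19 in the males. No male dexamethasone array had it above background, so the female level was at least 3410-fold higher (measured means 5.46 and -7.47, adjusted p = 2.96e-06). Such a bound sets the mean of the bright group against, per dim array, the lowest signal among probes above background or the probe's own value if higher. The bound is that of 1 probe. The other Sult2a2 probe, not above background in dexamethasone males either, differed by 6.84. The Sult2a genes are close copies, and their probes can share signal. A1bg, which encodes the plasma protein alpha-1-B glycoprotein, read 3.18, 2.65 and 4.38 in females and -8.53, -8.26 and -5.64 in males, a difference of 10.88 ± 0.88 (adjusted p = 0.000125). Non-overlap of the sexes was a condition of this gene's choice. The 2 sexes were separated by more than the whole spread within either sex, and only 1 of 3 male arrays had A1bg above background.

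Hao2, a peroxisomal hydroxyacid oxidase, read 2.11, 0.34 and 3.55 in females and was not above background on any male dexamethasone array, which makes it at least 293-fold higher in females (measured means 2.00 and -7.22, adjusted p = 0.00182). Sult3a1, a sulfotransferase of amines, read 4.31, 4.64 and 2.91 in females and -3.86, -2.58 and -3.75 in males (7.35 ± 0.72, adjusted p = 0.000385). Slc22a26, an organic anion carrier, read 2.52, 2.51 and 2.85 in females against -5.79, -2.13 and -6.18 in males (adjusted p = 0.00474). The male 2 array, on slide 1, was the nearest to the females for Slc22a26, and the difference within that slide was 4.64. Hamp2, a gene of the hepcidin family of iron-regulating peptides, read 7.30, 7.45 and 6.70 in females and 2.71, 3.67 and 3.11 in males (3.98 ± 0.32, adjusted p = 0.000125). Ly6c1, a surface antigen of the LY6 family, differed by 3.21 ± 0.31 (adjusted p = 0.00035), with females at 4.09, 4.18 and 4.20 and males between 0.42 and 1.68. The other Ly6c1 probe, above background on every array of each group, differed by 0.68 under dexamethasone, so the size for this gene depends on the probe.

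Smaller signals followed the same direction. Tafa2, a secreted chemokine-like protein, differed by 6.03 ± 0.70 with 1 of 3 male arrays above background, and Aldh3b3, an aldehyde dehydrogenase, differed by 4.66 ± 0.47. Ntrk2, the receptor of brain-derived neurotrophic factor, differed by 3.77 ± 0.70 and Ptgds, a prostaglandin D2 synthase, by 2.96 ± 0.45. These 4 genes kept their call when slide was a block, with adjusted p between 0.013 and 0.044. Atp6v0d2, a subunit of the vacuolar proton pump, was above background on no male dexamethasone array and at least 11.1-fold higher in females (measured means -2.81 and -8.30, adjusted p = 0.00373). Acot3, a peroxisomal acyl-CoA thioesterase, and Abcd2, a peroxisomal carrier of very long-chain fatty acids, were higher in females by 4.56 ± 0.80 and 2.77 ± 0.51, each with 1 of 3 male arrays above background. The slide block gave an adjusted p of 0.054 for Atp6v0d2, 0.071 for Acot3 and 0.12 for Abcd2.

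**Figure D1:**
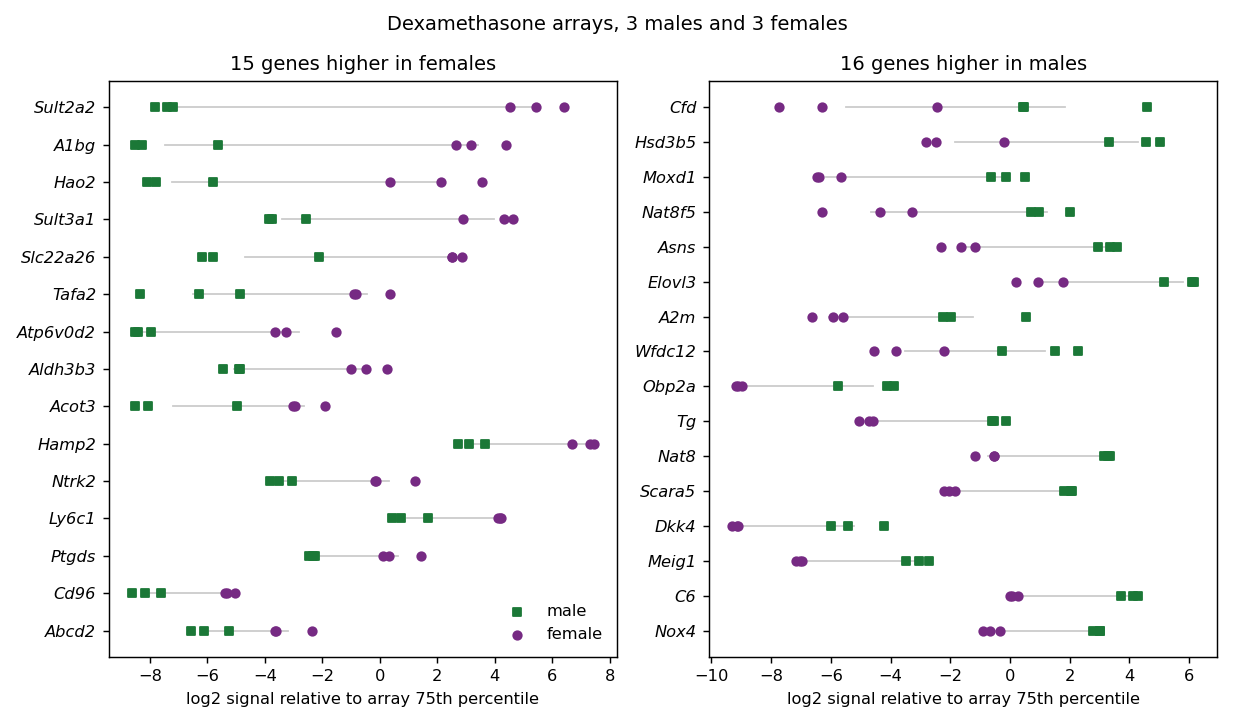
Signal in each of the 6 dexamethasone arrays (x axis, log2 relative to the array's 75th percentile) for genes named in the text that are among the 20 with the largest difference in each direction; green squares are males, purple circles females and grey lines join the means. In every gene shown the 3 female and 3 male values do not overlap, which was a condition of their choice; Sult2a2 and Cfd lead the panels with differences of 12.93 and -7.33.

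Of the cytochromes P450 known as female-biased, 10 of 21 measured were higher in females under dexamethasone and none in males, with a median difference of 1.01 against -0.05 over all genes. Cytochromes P450 are the main oxidising enzymes of steroid and drug clearance, and several mouse Cyp2a, Cyp2b and Cyp2c genes are near-identical neighbours whose probes can share signal. Cyp2a4, a testosterone 15-alpha-hydroxylase, read 7.71, 7.42 and 7.99 in females and 5.63, 4.87 and 5.21 in males (2.47 ± 0.23, adjusted p = 0.000301). Its near-identical neighbour Cyp2a5, a coumarin hydroxylase, differed by 1.01 ± 0.17 (adjusted p = 0.00882). Cyp2c38 differed by 2.41 ± 0.28, Cyp2c40 by 1.60 ± 0.23 and Cyp2g1 by 2.49 ± 0.42. Cyp39a1, the 24-hydroxycholesterol 7-alpha-hydroxylase of bile acid synthesis, differed by 1.98 ± 0.34. Cyp2b10, the classical phenobarbital-induced P450, differed by 1.22 ± 0.26 and Cyp2b13 by 1.56 ± 0.39. The second probe gave another size in the same direction for Cyp2b13 (9.61), Cyp2c40 (2.78) and Cyp2a5 (1.75). Under the slide block 2 of the 21 were called, Cyp2a4 and Cyp2c38, and the adjusted p was between 0.054 and 0.18 for Cyp2a5, Cyp2b10, Cyp2b13, Cyp2c40, Cyp2g1 and Cyp39a1. The median with that block was 1.06, and leaving out 1 dexamethasone array left 6 (without male 1 or male 2) to 8 of the 21. Leaving out any 1 of the male dexamethasone arrays ended the call of Cyp2b10 (adjusted p between 0.0503 and 0.0654). Leaving out any 1 of the 6 dexamethasone arrays ended that of Cyp2b13 (between 0.0859 and 0.113), as did any 1 of the female vehicle arrays (between 0.0509 and 0.0597).

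Among other genes listed here as female-biased, 19 of 41 measured were higher in females and 3 in males, with a median difference of 1.35. Beside those above, the 19 included Gstt3, a glutathione S-transferase, with values of 6.18, 6.30 and 6.27 in females against 5.01, 4.94 and 4.76 in males. Slco1a4, a carrier of bile acids and steroid conjugates, read 2.28, 2.10 and 3.76 in females and 0.16, 0.39 and 0.75 in males. Prlr, the prolactin receptor, read 2.34, 2.26 and 2.99 in females and -0.72, 0.79 and 0.65 in males (2.29 ± 0.38, adjusted p = 0.00742). The 3 members of that list that were higher in males were Aox1 and Aox3, aldehyde oxidases, and Slc22a30, an organic anion carrier. Both aldehyde oxidases were called higher in males under vehicle as well, so the listing as female-biased did not hold for them here. Aox3 read 4.82, 5.19 and 4.98 in males and 3.05, 3.21 and 3.68 in females (-1.68 ± 0.18, adjusted p = 0.000824), and under vehicle it was higher in males too, by -1.59. The slide block gave an adjusted p of 0.12 for Gstt3, 0.059 for Slco1a4 and 0.071 for Prlr, and left 10 of the 19 calls and 2 of the 3. Prlr was also not called with the mean of its probes.

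The start regions of these genes were read for the STAT5 motif because STAT5B carries the growth hormone signal. Promoters from RefSeq (GRCm38.p6; 250 bases before to 50 after a start) matched 11464 of the 14447 genes with a symbol. The letters TTCNNNGAA, a palindrome and so the same on both strands, which BCL6 can also bind, occurred in 8.65% of those genes, in 13.0% of the 391 matched genes higher in females and in 9.64% of the 280 higher in males. AGAACA, a core of glucocorticoid receptor sites searched on both strands, occurred in 15.8%, 25.1% and 16.8%, and ATTGAT, a core of HNF6 and CUX2 sites searched likewise, in 5.56%, 9.46% and 6.43%. These shares describe letters in a short window and not binding. The genes A1bg, Sult3a1, Slc22a26 and Hamp2 carried TTCNNNGAA in the 250 bases before a start. These bases are printed 5′ to 3′ on the gene's strand with the match in capitals: A1bg at chr15:60921271-60921520 (minus strand), Sult3a1 at chr10:33857472-33857721 (plus strand), Slc22a26 at chr19:7802668-7802917 (minus strand) and Hamp2 at chr7:30924182-30924431 (minus strand).
A1bg: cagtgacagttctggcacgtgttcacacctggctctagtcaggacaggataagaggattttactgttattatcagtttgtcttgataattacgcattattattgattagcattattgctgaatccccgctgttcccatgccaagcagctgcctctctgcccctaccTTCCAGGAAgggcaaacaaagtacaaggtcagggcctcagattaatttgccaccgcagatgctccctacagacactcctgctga
Sult3a1: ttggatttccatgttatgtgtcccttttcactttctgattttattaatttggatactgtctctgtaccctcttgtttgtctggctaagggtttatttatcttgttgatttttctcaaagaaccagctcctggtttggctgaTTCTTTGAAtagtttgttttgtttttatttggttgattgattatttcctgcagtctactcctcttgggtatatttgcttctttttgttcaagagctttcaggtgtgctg
Slc22a26: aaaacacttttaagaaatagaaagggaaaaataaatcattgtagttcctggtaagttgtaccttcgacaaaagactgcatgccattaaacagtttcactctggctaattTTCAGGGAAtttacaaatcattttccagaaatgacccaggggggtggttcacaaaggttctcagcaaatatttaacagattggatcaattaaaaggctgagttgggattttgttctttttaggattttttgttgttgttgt
Hamp2: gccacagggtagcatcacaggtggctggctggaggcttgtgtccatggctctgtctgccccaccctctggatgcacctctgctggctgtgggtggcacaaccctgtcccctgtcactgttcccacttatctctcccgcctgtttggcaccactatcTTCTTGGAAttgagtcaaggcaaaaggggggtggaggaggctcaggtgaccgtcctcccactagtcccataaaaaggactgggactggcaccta
The match began 84 bases before the start in A1bg, 109 in Sult3a1, 141 in Slc22a26 and 94 in Hamp2.

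Among genes higher in males, steroid and lipid enzymes, acetyltransferases, complement and several secreted proteins stood furthest apart. Hsd3b5, a 3-ketosteroid reductase of male mouse liver, read 4.55, 5.01 and 3.30 in males and -2.49, -0.21 and -2.83 in females (-6.13 ± 1.03, adjusted p = 0.00832). Elovl3, an elongase of very long-chain fatty acids, read 6.17, 6.10 and 5.14 in males and 0.93, 1.76 and 0.19 in females (-4.85 ± 0.39, adjusted p = 0.000125). Asns, asparagine synthetase, read 2.96, 3.57 and 3.36 in males and -1.65, -2.32 and -1.18 in females (-5.01 ± 0.30, adjusted p = 9.37e-06). In all 3 the lowest male array was above the highest female array, which was a condition of their choice. Nat8 and Nat8f5, acetyltransferases of the NAT8 family, differed by -4.01 ± 0.21 and -5.87 ± 0.73. Nox4, an NADPH oxidase that makes hydrogen peroxide, read 2.78, 3.00 and 3.03 in males and -0.89, -0.67 and -0.33 in females (-3.56 ± 0.27, adjusted p = 7.86e-05). Scara5, a scavenger receptor that takes up ferritin, differed by -4.00 ± 0.65, with males between 1.82 and 2.07 and females between -2.20 and -1.84. Meig1, named for its part in sperm formation, was on no female dexamethasone array above background and at least 14.6-fold higher in males (measured means -3.07 and -7.05, adjusted p = 0.000138).

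Of the P450s and steroid enzymes known as male-biased, 5 of 16 measured were higher in males, 1 was higher in females (Cyp2c29), and the median difference was -0.19. Beside Hsd3b5, Cyp7b1, the oxysterol 7-alpha-hydroxylase, read 7.35, 7.16 and 6.96 in males and 3.55, 3.90 and 4.25 in females (-3.26 ± 0.30, adjusted p = 0.000265). Cyp2d9, a testosterone 16-alpha-hydroxylase, stayed within 7.70 to 7.76 in males and 6.88 to 7.03 in females, a difference of -0.77 ± 0.11 (adjusted p = 0.00327). Cyp2f2 was also higher in males. Cyp4a12a, a fatty acid omega-hydroxylase, differed by -0.83 ± 0.21, just inside the threshold (adjusted p = 0.0496). These values are of the brighter of 2 probes. The other Cyp4a12a probe, above background on all 12 arrays, differed by -9.78, so the size for this gene depends on the probe. Its call was lost with slide as a block (adjusted p = 0.096), without any of the male arrays of either treatment (0.0629 to 0.139) and without female vehicle 1, female dexamethasone 1 or 2 (0.068, 0.158 and 0.102). Over the 16, 3 were higher in males under the slide block and 3 without male 1, male 2 or female 1.

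Other genes known as male-biased were mostly higher in males: 24 of 36 measured were higher in males (0 in females), with a median difference of -1.28. At an unadjusted p under 0.05 the count was 26. Gstp1, a glutathione S-transferase, read 8.94, 9.36 and 9.08 in males and 7.31, 7.34 and 7.36 in females (-1.79 ± 0.15, adjusted p = 0.000125). Slco1a1, a carrier of steroid and bile acid conjugates, differed by -2.54 ± 0.50, with males between 2.63 and 2.94 and females between -0.11 and 0.85. All 4 measured genes of the major urinary proteins, near-identical pheromone carriers whose probes can share signal, were higher in males. Mup3 differed by -0.78 ± 0.15 and Mup1 by -0.66 ± 0.16, each by its brightest probe. The other Mup3 probe differed by -2.23 and the 2 other Mup1 probes by -1.34 and -1.21, so the sizes depend on the probe. Under the slide block 10 of the 36 were called, the median was -1.29, and the adjusted p was 0.06 for Slco1a1, 0.07 for Mup3 and 0.071 for Mup1. Leaving out 1 dexamethasone array left 15 (without female 1) to 23 of the 36. The call of Slco1a1 was lost without male 1 (0.053) or female 1 (0.0674) and that of Mup3 without male 2 (0.0625) or female 1 (0.0633). The call of Mup1 was lost when any 1 dexamethasone array except male 1 was left out (0.067 to 0.121), and without male vehicle 2 or 3 or female vehicle 1 (0.0593, 0.0609 and 0.0522).

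Of the terminal complement genes, whose products assemble the membrane attack pore, C6, C8a, C8b and C9 were higher in males, 4 of 6 measured. C6 read 4.27, 3.73 and 4.13 in males and 0.08, 0.27 and 0.01 in females (-3.92 ± 0.32, adjusted p = 0.000125). C8a read 6.08, 6.32 and 6.16 in males and 3.83, 4.52 and 3.87 in females (-2.11 ± 0.18, adjusted p = 0.000177). C9 differed by -1.60 ± 0.24 and C8b by -1.01 ± 0.23. No female array reached the lowest male array for any of the 4. Over the 35 acute phase and complement genes measured, these 4 were the genes higher in males, Hamp2 was the 1 higher in females, and the median was -0.25. The slide block gave an adjusted p of 0.065 for C9 and 0.07 for C8b. The call of C8b was also lost without male 1, male 2, female 1 or female 3 (0.0887, 0.0907, 0.0892 and 0.0635).

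By the probe used for each, a further set of genes read low or below background under vehicle in both sexes and higher in males under dexamethasone. Tg encodes thyroglobulin, the precursor of thyroid hormone. It read -0.61, -0.12 and -0.55 in dexamethasone males and -5.05, -4.72 and -4.60 in dexamethasone females, a difference of -4.36 ± 0.21 (adjusted p = 1.43e-06). On none of the 6 vehicle arrays was Tg above background by this probe. A second Tg probe was above background on 1 of 3 male and 0 of 3 female vehicle arrays. Moxd1, a monooxygenase related to dopamine beta-hydroxylase, read -0.14, 0.51 and -0.65 in dexamethasone males and -5.67, -6.46 and -6.39 in dexamethasone females (-6.08 ± 0.53, adjusted p = 0.000177), while the vehicle males read -6.21, -4.06 and -4.63 and the vehicle females -5.70, -6.94 and -6.29. A2m, the protease inhibitor alpha-2-macroglobulin, read -2.26, -1.98 and 0.54 in dexamethasone males and -5.59, -5.92 and -6.63 in dexamethasone females (-4.82 ± 0.76, adjusted p = 0.00649). A second A2m probe differed by -1.42 and was above background on 2 of 3 female and 3 of 3 male vehicle arrays. The size and the low vehicle reading of A2m thus depend on the probe. By the probe used for each, the male dexamethasone arrays stood apart from the other 9 arrays in these 3 genes.

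Obp2a, a lipocalin that binds odorants, was above background on all 3 male dexamethasone arrays (-3.89, -5.76 and -4.10) and on no other array, at least 5.23-fold higher than in dexamethasone females (measured means -4.58 and -9.09, adjusted p = 0.001). Dkk4, a secreted inhibitor of Wnt signalling, had the same detection and was at least 3.39-fold higher (measured means -5.21 and -9.19, adjusted p = 0.00207). Wfdc12, a small protein of the whey acidic protein family, read 2.29, 1.52 and -0.28 in dexamethasone males and -4.55, -3.80 and -2.23 in dexamethasone females (-4.70 ± 0.92, adjusted p = 0.0161). In all, 33 genes were above background on every male dexamethasone array and no vehicle array, a state that by itself selects genes high in that group. Of these 11 were called, all higher in males, and those with a usable symbol were Dkk4, Gad2, Obp2a, Pcsk1, Tg and Trp63. The slide block gave an adjusted p of 0.067 for A2m and 0.056 for Wfdc12, and Wfdc12 was not called without male 1, male 2, female 1 or female 2 (0.0597, 0.0557, 0.0677 and 0.0543).

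**Figure D2:**
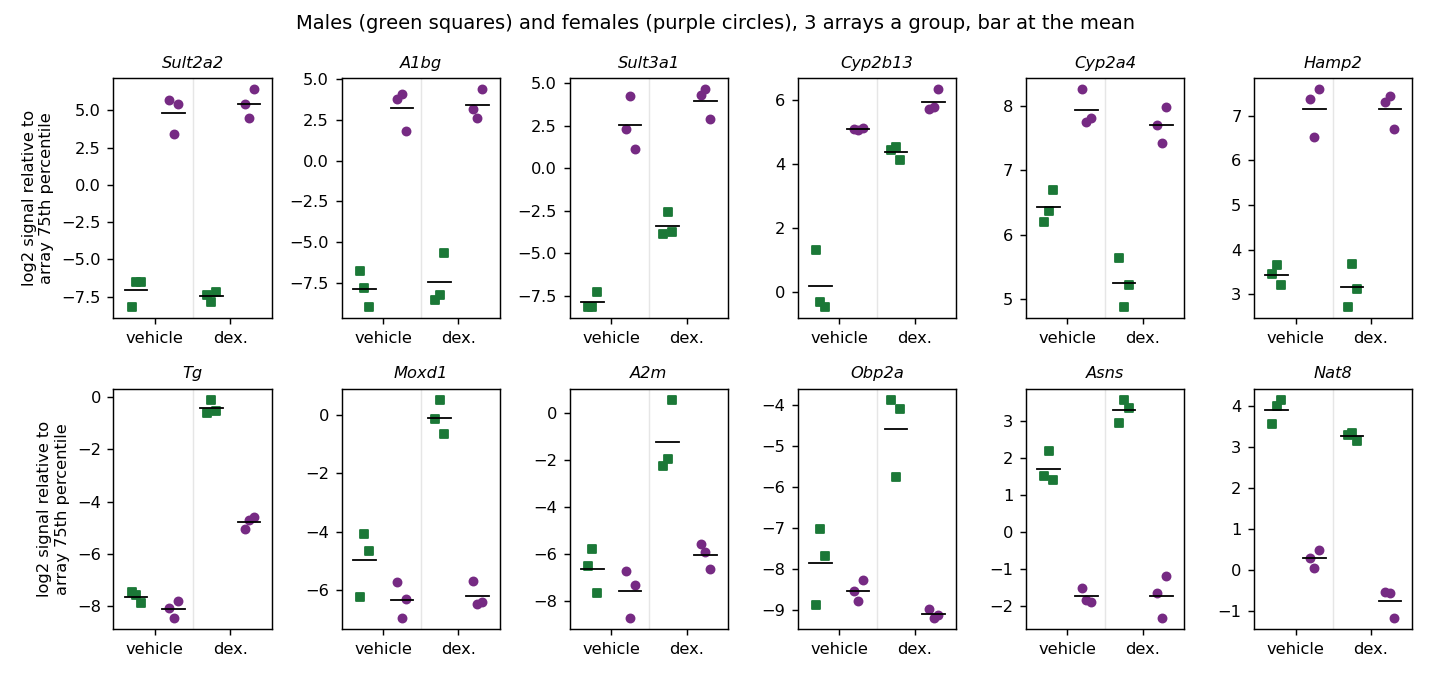
Signal in all 12 arrays (y axis, log2 relative to the array's 75th percentile; each panel has its own scale) for 6 genes higher in females (top) and 6 higher in males (bottom) under dexamethasone; points are arrays, bars group means, vehicle left and dexamethasone right. Sult2a2 and Hamp2 keep their sex difference in both treatments, whereas Tg reads at or below -7.47 on every vehicle array and at -0.61 to -0.12 in the dexamethasone males.

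The TTCNNNGAA letters also stood before the starts of 2 of the genes higher in males, shown in the same way for comparison: Moxd1 at chr10:24223267-24223516 and Nox4 at chr7:87246399-87246648, both on the plus strand.
Moxd1: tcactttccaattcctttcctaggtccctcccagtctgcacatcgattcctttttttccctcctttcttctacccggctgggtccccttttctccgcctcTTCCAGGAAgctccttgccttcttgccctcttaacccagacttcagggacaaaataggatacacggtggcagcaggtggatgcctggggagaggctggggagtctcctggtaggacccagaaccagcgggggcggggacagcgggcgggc
Nox4: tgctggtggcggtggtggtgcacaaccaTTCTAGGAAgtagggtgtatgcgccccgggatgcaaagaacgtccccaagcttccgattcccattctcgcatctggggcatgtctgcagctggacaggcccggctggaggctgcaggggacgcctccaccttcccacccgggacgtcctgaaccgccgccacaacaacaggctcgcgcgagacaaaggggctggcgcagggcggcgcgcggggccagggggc
The matches began 150 and 222 bases before the start. Of the 40 genes with the largest differences 29 had a promoter in the table, and 5 of 14 higher in females (the fifth being Cd96) and 2 of 15 higher in males held the letters in the 250 bases before a start, against 854 of the 11464 genes (7.45%). The 40 were chosen by their differences, and nothing is read from these counts.

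Cfd, complement factor D or adipsin, had the lowest difference of all named genes at -7.33 ± 1.39 (adjusted p = 0.0142). It read 0.45, 4.58 and 0.48 in dexamethasone males and -7.73, -2.46 and -6.30 in dexamethasone females, of which 2 of 3 arrays were above background. The highest male and the highest female value were both on slide 1. Cfd is best known from fat, and of 8 adipocyte markers listed 5 were measured. Cidec, a lipid droplet protein, was the other one higher in males (-1.71 ± 0.25, adjusted p = 0.00439), with males between 2.65 and 3.07 and females between 1.03 and 1.32. Fabp4, Plin1 and Lipe differed by -0.21, 0.32 and 0.26 and were not called; Adipoq, Lep and Retn were not analysed here. The summed linear level of the 5 markers, Cfd and Cidec included, was 25.2 to 50.6 times the 75th percentile in dexamethasone males and 15.1 to 29.2 in females. Since it holds Cfd itself, the sum is no separate gauge of fat. The part of fat in the Cfd difference was not tested. Both Cfd and Cidec were called under the slide block, and Cfd was not called without female 1 (adjusted p = 0.0551).

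Of 34 genes of the growth hormone receptor, its signal and feedback and the sex-biased transcription factors, Prlr alone was called. The median difference was -0.01. Over all genes 5.83% were called, so 1 of 34 is near that share and does not set the list apart. At an unadjusted p under 0.05 (limma) the count was 7, against 3996 of all 17998 genes. After adjustment, 3 were higher in females and 2 in males without female 3, and 3 were higher in females without male 3. Ghr, the growth hormone receptor, differed by -0.10 ± 0.15 and Stat5b by 0.65 ± 0.18 (adjusted p = 0.0596). Of 4 other probes of Ghr, 2 had the direction of this one. The 2 other probes of Stat5b differed by 0.28 and 0.03, and the slide block gave Stat5b an adjusted p of 0.28. Cux2, the female-biased repressor, read -3.02, -3.08 and -1.18 in females and -7.16, -8.25 and -4.35 in males. The groups did not overlap, as in 26.7% of all genes, and 1 of 3 male arrays was above background. The difference of 4.16 ± 1.15 missed the threshold (limma adjusted p = 0.0609). Bcl6, the male-biased repressor, differed by -1.04 ± 0.85 (adjusted p = 0.499), and Socs2, a feedback inhibitor of growth hormone signalling, by -1.29 ± 0.58 (adjusted p = 0.224). Under vehicle Socs2 differed by 1.73 toward females, and its second probe by 1.78 under vehicle and -0.85 under dexamethasone. Socs2 was not called under either treatment, nor was its change of -3.02 ± 0.82 (limma adjusted p = 0.63). Igfals, a serum carrier subunit for insulin-like growth factor, differed by 0.87 ± 0.25 (adjusted p = 0.0693) and Hnf4a, a hepatocyte identity factor, by -0.16 ± 0.13.

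Among steroid receptors and enzymes of local steroid supply, 2 of 23 measured were higher in females and 1 in males. The shares over all genes were 3.34% and 2.49%, and the list median was -0.04. Nr3c1, the glucocorticoid receptor itself, read 2.67, 2.98 and 2.36 in females and 2.56, 2.38 and 1.83 in males, overlapping groups with a difference of 0.42 ± 0.21 (adjusted p = 0.271). Hsd11b1, which regenerates active glucocorticoid, differed by 0.43 ± 0.12 (adjusted p = 0.0685). Serpina6, corticosteroid-binding globulin, read 5.76, 5.57 and 7.01 in females and 3.89, 4.90 and 3.85 in males (1.90 ± 0.45, adjusted p = 0.0356). Akr1d1, the 5-beta-reductase that clears steroids, was higher in females by 1.22 ± 0.24 and Ugt2b35, a glucuronosyltransferase, higher in males by -0.82 ± 0.18. The slide block ended the call of all 3 (adjusted p = 0.24 for Serpina6, 0.11 for Akr1d1 and 0.075 for Ugt2b35). Their calls were also lost without some single arrays: Akr1d1 without male 2 (0.0557), Ugt2b35 without male 1, male 2, female 1 or female 2 (0.0552 to 0.101), and Serpina6 without male 1, male 3, female 1, female 3 or male vehicle 2 (0.0503 to 0.101).

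Genes known as direct glucocorticoid receptor targets were not called: 0 of 29 by limma, with 5 at an unadjusted p under 0.05 and a lowest adjusted p of 0.121. Their median difference was -0.43 against -0.05 over all genes, and 24 of the 29 were lower in females. Without female 3, 8 of the 29 were called higher in males. Gluconeogenesis and amino acid breakdown had 0 of 28 called (6 at an unadjusted p under 0.05) and a median of 0.14. Hepatocyte markers had 0 of 9 called (3 at an unadjusted p under 0.05) and a median of -0.23. Over all genes 5.83% were called by limma, and 3996 of 17998 had an unadjusted p under 0.05. Counts of 0 in lists this short therefore do not show a lack of sex difference. Of 18 bile acid genes 3 were higher in females, Cyp39a1, Akr1d1 and Nr0b2, the last encoding the repressor SHP, and Cyp7b1 was higher in males. Nr0b2 differed by 1.24 ± 0.28 and Nr1i3, the xenobiotic receptor CAR, by 0.90 ± 0.18. Of 19 measured genes of CAR, the related receptor PXR and their targets, 4 were higher in females: Nr1i3, Cyp2b10, Cyp2c29 and Abcb1a, a drug efflux pump (1.52 ± 0.23, with 2 of 3 male arrays above background). Under the slide block none of these 4 was called (Abcb1a adjusted p = 0.06, Nr1i3 0.12), nor Nr0b2 (0.19). Without male 1, male 2, female 1 or female 2, 2 of the 19 were higher in females. Nr1i3 was not called without female 1 (0.0536) or female 2 (0.055), and Nr0b2 was called only without male 1 among the 6 dexamethasone arrays (0.057 to 0.0945 without the others).

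**Figure D3:**
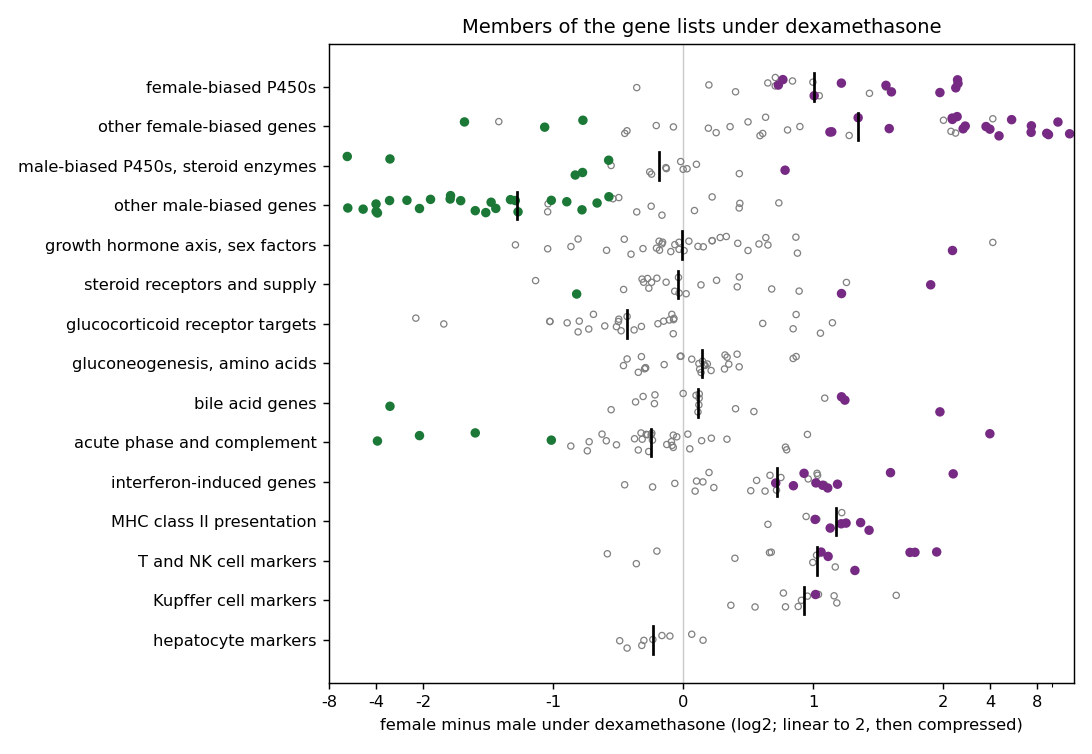
Female minus male difference under dexamethasone (x axis, log2, linear between -2 and 2 and compressed beyond) for each measured member of 15 gene lists; filled points have an adjusted p under 0.05 (purple higher in females, green higher in males), open points do not, and black bars are list medians. The lists of sex-biased genes spread to both sides with medians of 1.01, 1.35, -0.19 and -1.28, while growth hormone axis genes centre at -0.01.

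Immune genes were higher in females in lists that hold interferon-induced genes, antigen presentation and lymphocyte markers. Of 27 interferon-induced genes 9 were higher in females and 0 in males, against 3.34% and 2.49% of all genes, with a median of 0.72. Gbp3, an interferon-induced guanylate-binding protein, read 0.98, 1.28 and 1.25 in females and -0.38, -0.20 and -0.69 in males (1.59 ± 0.19, adjusted p = 0.00154). Gbp2 differed by 1.19 ± 0.17, Ifit2, an RNA-binding antiviral protein, by 1.07 ± 0.17 and Oasl2 by 1.02 ± 0.17. The 3 female values lay above the 3 male values in each of these 4 genes. Under the slide block 2 of the 27 were called, Gbp2 and Gbp3 (adjusted p = 0.072 for Ifit2 and 0.067 for Oasl2), and the median was 0.73. Leaving out 1 dexamethasone array left 4 (without male 3 or female 1), 5 (without male 1 or female 2) or 9 of the 27.

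Of 10 genes of MHC class II presentation 6 were higher in females, against 3.34% of all genes. All 10 differences were positive, and the median was 1.17. H2-DMb2, which loads peptides, read -3.27, -2.90 and -2.77 in females and -4.59, -4.27 and -4.37 in males (1.43 ± 0.25, adjusted p = 0.0101). H2-Aa and the invariant chain Cd74 differed by 1.36 ± 0.32 and 1.13 ± 0.25. Under the slide block 0 of the 10 were called (H2-DMb2 0.092) and the median was 0.82. Leaving out any 1 dexamethasone array left 1 or 2 of the 10, so the count of 6 rests on all 6 arrays. T and NK cell markers gave 6 of 15 higher in females (Gzmb, Cd3g, Lck, Gzma, Cd2 and Ccr7), with a median of 1.03, while Cd3e, Cd8b1 and Cd4 differed by -0.58, -0.36 and -0.20. Gzmb, a killer cell protease, differed by 1.75 ± 0.31 (adjusted p = 0.0106). Under the slide block 0 of the 15 were called (Gzmb 0.1). Leaving out 1 dexamethasone array left 1 (without male 1, female 1 or female 2), 2 (without male 3), 4 (without female 3) or 7 (without male 2). Cd96, a receptor of T and NK cells, was above background on no male dexamethasone array and at least 2.05-fold higher in females (measured means -5.24 and -8.13, adjusted p = 0.000152).

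Among markers of other non-parenchymal cells, 1 of 12 Kupffer cell markers (Csf1r, limma adjusted p = 0.049) and 2 of 11 stellate cell markers (Lum and Dcn) were higher in females. So was 1 of 10 endothelial markers (Tek), against 3.34% of all genes. The medians were 0.93, 0.51 and 0.38. The differences of all 12, 11 and 10 markers were positive, and none of the 4 calls was kept under the slide block. Leaving out any 1 of the 6 dexamethasone arrays ended the calls of Csf1r, Lum and Tek, and any 1 except female 3 ended that of Dcn. The summed linear level of the Kupffer cell markers was 60.5 to 77.8 in dexamethasone males and 92.0 to 176 in females, that of T and NK cell markers 1.25 to 1.79 against 1.84 to 2.38, and that of MHC class II genes 12.7 to 14.4 against 25.2 to 35.8. The 9 hepatocyte markers summed to 2250 to 2670 in males and 2020 to 2260 in females. The part of cell makeup in the immune differences was not tested. With normexp the medians were 0.44 for the interferon-induced genes, 0.68 for MHC class II, 0.09 for T and NK cell markers and 0.70 for Kupffer cell markers, and the calls were 1 of 27, 0 of 10, 0 of 15 and 0 of 12.

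Under vehicle, 332 of the 17998 genes were called by sex (1.84%), 115 higher in females (0.639%) and 217 higher in males (1.21%). Which treatment had more calls depended on the processing. With slide as a block there were 218 under dexamethasone and 364 under vehicle, and with normexp 54 and 83. Of those 332 genes 239 were called in the same direction under dexamethasone (72.0% of the vehicle calls and 22.8% of the dexamethasone calls), and 0 in the opposite direction. Among genes called in both, the median difference was 1.58 under dexamethasone and 1.55 under vehicle for the 91 higher in females, and -1.85 and -1.79 for the 148 higher in males. For the 510 and 300 genes called under dexamethasone only, the medians were 0.98 and -0.85 under dexamethasone and 0.46 and -0.36 under vehicle; these genes were chosen on the first of each pair. Over the 16248 genes above background on all 12 arrays, the sex differences under the 2 treatments, which share no arrays but share slides, correlated at r = 0.69 (Pearson) and 0.57 (Spearman) across genes, as a description.

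**Figure D4:**
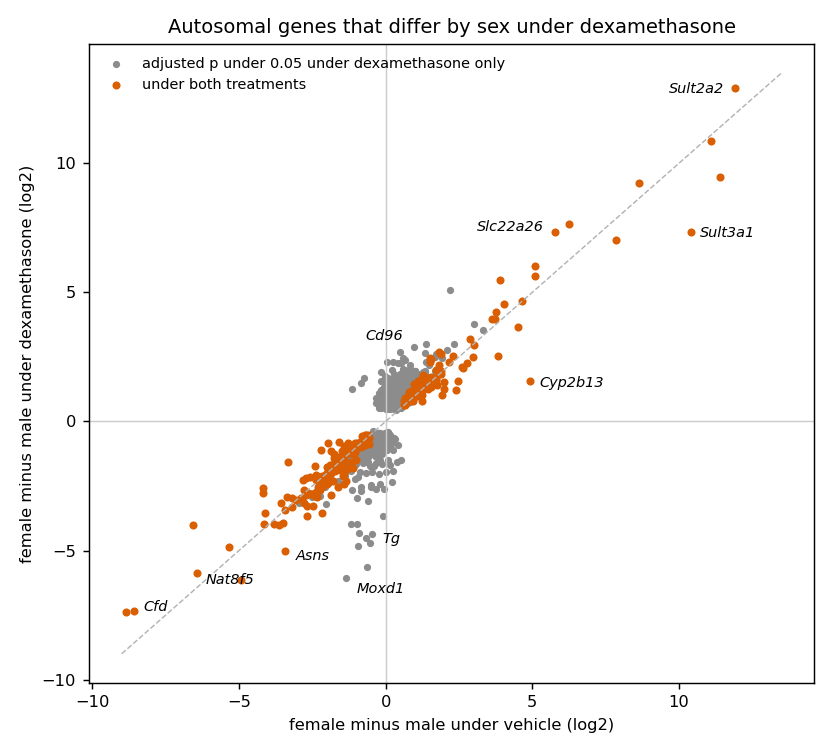
Female minus male difference under dexamethasone (y axis, log2) against that under vehicle (x axis, log2) for the 1049 genes called under dexamethasone; orange points were also called under vehicle, grey ones were not, and the dashed line marks equal differences. The 239 orange points keep their sign, and Tg and Moxd1 lie far below the line with vehicle differences of -0.46 and -1.34.

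The test of the difference itself, the sex difference under dexamethasone minus that under vehicle, called 1 gene of the 17998 (0.00556%), with 957 at an unadjusted p under 0.05. This was Tg, at -3.90 ± 0.29 (adjusted p = 0.00112). By the probe used Tg was below background on all vehicle arrays, so its vehicle difference of -0.46 is not a measured level in either sex. The second Tg probe was above background on 1 of 3 male and 0 of 3 female vehicle arrays and differed by -1.18 under vehicle. The call of Tg was kept under the slide block (-3.82, limma adjusted p = 0.0406) and without any 1 array (-4.07 to -3.75). It was not called with the mean of its 2 probes (-3.64, adjusted p = 0.0974) or with normexp (-2.19, adjusted p = 1), and it was not tested where every array had to be above background. Of the other male genes of this kind, Moxd1 and Wfdc12 did not pass: the change was -4.74 ± 0.75 in Moxd1 (adjusted p = 0.21) and -4.17 ± 1.30 in Wfdc12 (0.73). By the probes used, A2m was above background on 1 of the 6 vehicle arrays and Obp2a on none, so their changes are not given. The second A2m probe was above background on 2 of 3 female and 3 of 3 male vehicle arrays. It differed by -0.41 under vehicle and -1.42 under dexamethasone, and the change was not tested.

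Some probes had a smaller sex difference under dexamethasone than under vehicle, without a call for the change. Cyp2b13 read 1.31, -0.30 and -0.47 in vehicle males and 4.46, 4.54 and 4.13 in dexamethasone males, while females read 5.08 to 5.12 under vehicle and 5.71 to 6.34 under dexamethasone. Its sex difference was 4.92 under vehicle and 1.56 under dexamethasone, a change of -3.36 ± 0.55 (adjusted p = 0.21). These are values of 1 probe: the other Cyp2b13 probe differed by 9.61 under both treatments, so the smaller difference was not seen by both probes. Its neighbour Cyp2b9 had 4.70 under vehicle and 1.43 under dexamethasone, a change of -3.27 ± 0.75 (adjusted p = 0.47), and was not called under dexamethasone (adjusted p = 0.145). Its second probe gave 4.86 and 2.02. Both genes were singled out after their values were seen, and their near-identical sequences can share probe signal. In Scara5, higher in males and above background on 1 of 3 female vehicle arrays, the difference was -6.58 under vehicle and -4.00 under dexamethasone (adjusted p of the change = 0.82). The second Scara5 probe gave -3.73 under vehicle and -3.75 under dexamethasone, so the smaller difference was not seen by both probes. That probe was above background on 0 of 3 female and 2 of 3 male vehicle arrays.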

How the data were processed

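Liver RNA (500 ng, Cy3) of 12 mice was hybridised to 1-colour Agilent arrays, 4 to a slide. The authors deposited scanner output of Agilent Feature Extraction 9.5 (per the submitters' processing notes), whose processed signal is an intensity, already corrected for background per the file headers. The series' value table held the same intensities (largest difference 0).

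From these values, control spots (1639 of 45018) and outlier spots were left out and log2 signals were scaled to each array's 75th percentile. Spots of a probe were averaged. Probes well above background on all 3 arrays of any of the 4 groups were tested, and 1 probe stood for each gene, the one with the highest mean. Names came from the files, updated through RefSeq (22944 probes by accession, 6664 by symbol, 3108 by synonym; 8458 kept the file's name). limma 3.58.1 (R 4.3.3; lmFit, eBayes) was fitted to all 12 arrays with 4 group means and 8 residual degrees of freedom, with the Benjamini-Hochberg adjustment taken over 19335 genes. The arrays' number limits precision.

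Named genes were the 20 with the largest called, non-overlapping difference in each direction, plus, of each gene list, up to 6 called members in order of p and all members of the growth hormone and steroid receptor lists. Cyp2b9, Cyp2b13, Mup1, Mup3, uncalled cell markers and members of short counts were named outside this rule, after their values were seen. A gene that the rule names is not reported here. Members and lists were chosen with earlier results of these data known. Alternatives were quantile normalization, normexp (offset 50), other filters and probe rules, slide and replicate blocks, array weights, the compared arrays alone, adjustment over autosomal genes, and each array left out. Same-numbered arrays of different groups did not deviate together (correlations from -0.216 to 0.066 across slides), so the numbers were not taken as pairs.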

Additional observations from a re-analysis of the deposited data

Results flagged for a closer look

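The sex difference of Tg, thyroglobulin, changed with treatment by the test of the difference itself. Dexamethasone minus vehicle was -3.90 ± 0.29 (limma adjusted p = 0.00112), with all 3 dexamethasone males above all 3 dexamethasone females. By the probe used, no vehicle array of either sex had Tg above background. A second probe was above background on 1 of 3 male and 0 of 3 female vehicle arrays. The change was not called with the mean of both probes (limma adjusted p = 0.0974) or with normexp (-2.19).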

How the results depend on the processing

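Counts are of genes called under dexamethasone (main 1049), under vehicle (332) and for the change between them (1). Normexp gave 54, 83 and 0, no filter on dim probes 3930, 266 and 2089, only probes above background on all 12 arrays 1001, 300 and 0, and the mean of a gene's probes 1019, 335 and 0. Without the filter on dim probes, 906 of the 3930 were higher in females and 3024 in males. Of the 2089 changes, 83 were positive and 2006 negative. Slide as a block gave 218, 364 and 1, fits of the compared arrays alone 443 and 185, and array weights 2200, 663 and 3. Leaving out 1 array gave 418 to 1202, 138 (without male vehicle 2) to 382, and 1 to 30 (without female dexamethasone 3). Quantile normalization gave 1153, 362 and 1 and adjustment over autosomal genes 1042, 324 and 1. The difference of Ghr, not called, changed sign with normexp (0.006), the mean of its probes (0.092) and without female dexamethasone 1 (0.025), with -0.25 to 0.03 over the arrays left out. The causes were not tested. Signal near background limits the dim probes, and 3 arrays a group limit all.

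With a replicate block the counts were 653, 211 and 1. The replicate numbers did not pair the arrays, with correlations of same-numbered arrays from -0.017 to 0.326 on a shared slide and -0.216 to 0.066 otherwise.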

Other observations

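Olfactory and vomeronasal receptor genes, a large family known from sensory tissue, formed a dim group in which 12 of 339 measured were higher in males under dexamethasone and 0 in females, with a median difference of -0.41. At vehicle the counts were 7 and 0 and the median -0.36. Carboxylesterases, enzymes that hydrolyse esters and many drugs, had 3 of 15 higher in males (Ces2b, Ces2c and Ces3b) and a median of -0.44. Among killer lectin receptors, surface receptors of NK cells, 5 of 16 were higher in females (Klra7, Klrb1a, Klrb1f, Klrd1 and Klre1) with a median of 0.68, and among GIMAP genes, GTPases of lymphocytes, 4 of 7 with a median of 0.69. These families were chosen after values were seen, and the shares over all genes were 3.34% higher in females and 2.49% in males.

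Circadian clock genes had 0 of 18 called with all arrays (2 at an unadjusted p under 0.05, limma) and 5 higher in females and 1 in males without female dexamethasone 3. DNA replication and mitosis genes had 0 of 20 called (1 at an unadjusted p under 0.05). Cholesterol synthesis and uptake genes had Abca1 higher in males, 1 of 21, and a median of -0.19. Over all genes 5.83% were called, so counts this low in short lists do not show a lack of sex difference.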
